A study of Mus musculus with 6 samples.

Results

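The aminoacyl-tRNA synthetases are the enzymes that join each amino acid to its tRNA, and 36 of their genes, found by symbol among the 52459 rows of the count table, were measured in mouse liver tumours. The 20 symbols without a final 2 form the cytosolic set, and the 16 symbols ending in 2 form the mitochondrial set. All 36 had a row and all 36 passed the filter on low counts, with at least 60 reads in every library. RNA sequencing covered 3 libraries of tumours in which MYC had been inactivated for 4 days (MYC_Off) and 3 of tumours with active MYC (MYC_On). Both groups carry the genotype MYC-LAP-tTA: a tetracycline-controlled transactivator, made under a promoter active in hepatocytes, drives a MYC transgene. The labels give neither the agent that switched MYC off nor the age of the mice, nor whether each sample is a different animal. The p-values therefore rest on sample-to-sample spread that could be technical alone. Levels are CPM, the reads of a gene relative to the library total after TMM scaling for composition, given per library or as mean ± SD over 3 libraries. Every log2 fold change is the MYC_Off level minus the MYC_On level and carries its standard error (SE). Calls are made by edgeR's quasi-likelihood test at 0.05 after the Benjamini-Hochberg procedure over all tested genes.

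Protein synthesis in the cytosol and in mitochondria uses separate pools of charged tRNA. Mammalian cells therefore keep a cytosolic and a mitochondrial synthetase for most amino acids, all encoded in the nucleus, while the genes Gars (glycine) and Kars (lysine) each give rise to both forms. Eprs is a fusion enzyme that charges tRNAs for glutamate and proline, and Farsa and Farsb encode the subunits of one cytosolic enzyme for phenylalanine. Several cytosolic enzymes sit in a multi-synthetase complex held by the scaffold proteins Aimp1, Aimp2 and Eef1e1. The enzymes fall into class I and class II by the fold of their catalytic domain. In mammals, many cytosolic synthetase genes are known targets of ATF4, the transcription factor of the amino acid and stress response, and MYC binds E-box motifs in the promoters of growth genes.

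Promoter windows of the members are shown here as a description of sequence. Cars, Hars, Lars, Nars, Rars, Vars and Wars of the cytosolic set had no window, nor had Hars2 and Pars2 of the mitochondrial set. RefSeq (GRCm38.p6, the assembly of mm10) gave a window from 250 bases before to 50 bases after the gene start for 27 members, 13 cytosolic and 14 mitochondrial. The canonical E-box CACGTG, which reads the same on both strands, was in the window of 4 of 13 cytosolic and 1 of 14 mitochondrial members, and in 8.09% of all 27025 genes with a window. The composite of ATF4 and C/EBP, TGATGNAA on either strand with N for any base, was in 5 of 13 cytosolic and 0 of 14 mitochondrial windows, and in 4.51% of all genes. The motifs do not overlap each other in these windows. The 250 bases before the RefSeq start of Aars, the alanine enzyme, hold one match of each kind. They lie at chr8:111033592-111033841 on the plus strand. GENCODE M21 starts the gene further upstream, at 111033144, so by that annotation the stretch lies inside the gene. Capitals mark the E-box and then the composite, read on the opposite strand.
Aars upstream: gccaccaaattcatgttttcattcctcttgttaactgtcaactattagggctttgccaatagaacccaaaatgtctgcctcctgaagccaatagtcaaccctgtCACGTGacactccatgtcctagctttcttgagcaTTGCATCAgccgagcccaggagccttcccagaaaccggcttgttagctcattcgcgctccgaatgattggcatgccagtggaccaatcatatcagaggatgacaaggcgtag

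The composite matches of the other members are shown as 30 bases around the match, 5′ to 3′ on the strand of the gene, with the match in capitals. Aars has another match just after its start (chr8:111033840-111033869, plus strand). The matches of Gars (chr6:55037960-55037989, plus), Iars (isoleucine, chr13:49682126-49682155, plus), Tars (threonine, chr15:11399655-11399684, minus) and Yars (tyrosine, chr4:129189895-129189924, plus) lie close to their starts.
Aars: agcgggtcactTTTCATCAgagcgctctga
Gars: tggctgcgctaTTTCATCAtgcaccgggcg
Iars: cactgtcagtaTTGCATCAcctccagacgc
Tars: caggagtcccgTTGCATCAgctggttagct
Yars: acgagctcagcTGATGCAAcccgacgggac

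E-box matches were also present in Farsb (chr1:78488919-78488948, minus strand), Iars (chr13:49682049-49682078, plus), Tars (chr15:11399622-11399651, minus) and Ears2, the mitochondrial glutamate enzyme (chr7:122067048-122067077, minus). Capitals again mark the match.
Farsb: ttagacaggcatCACGTGagacagcccaag
Iars: gaccaatcgccaCACGTGttgtttgtaggt
Tars: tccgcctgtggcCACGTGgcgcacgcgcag
Ears2: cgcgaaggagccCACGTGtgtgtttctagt
Of the 5 genes with a composite match, Gars, Iars and Yars were lower in MYC_Off, Aars was higher and Tars was not called. Of the genes with an E-box match, Farsb and Iars were lower, Aars was higher, and Tars and Ears2 were not called. Aars, Iars and Tars carry both motifs, and a link between match and response was not tested. A match is a description of these letters, and binding was not measured.

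The libraries held between 16292718 and 19265623 reads assigned to genes. Myc itself stood at 74.8, 10.2 and 18.7 CPM in MYC_Off replicates 1, 2 and 3, against 779, 1018 and 854 CPM in MYC_On. The row does not separate transgene from mouse gene reads. The 20 most abundant genes took 29.9% to 39.1% of reads in MYC_Off and 11.7% to 19.2% in MYC_On, so the scaling matters for every fold change. With library size only, the median over all tested genes was -0.56 in place of 0.18, and the share of called genes that were higher was 32.3% in place of 56.7%. All 10 macrophage markers, 9 of 10 hepatocyte, 6 of 7 tested T cell, 5 of 5 tested neutrophil, 5 of 6 endothelial and 6 of 7 stellate cell markers were higher in MYC_Off, and all 6 proliferation markers were lower. Of 5 bile duct markers 2 were higher and 1 lower. Of all tested genes 29.9% were called higher and 22.8% lower, and the bile duct counts are near these shares. The summed level of the hepatocyte markers was 103757 to 267744 CPM in MYC_Off and 3079 to 6914 CPM in MYC_On. Summed macrophage markers were at 1995 to 7848 CPM in MYC_Off and 558 to 1078 CPM in MYC_On, and proliferation markers at 86.3 to 173 CPM in MYC_Off and 1088 to 1404 CPM in MYC_On. No gene of these marker lists was at 0 reads over the MYC_On libraries. Their part in the results below was not tested, and in bulk tumour RNA fewer cells of a type and less RNA per cell cannot be told apart.

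Synthetase genes of both compartments were lower with MYC inactivated. Of the 36 members 26 fell, 1 rose and 9 were not called. In the cytosolic set 16 of 20 fell and 1 rose, and in the mitochondrial set 10 of 16 fell and 0 rose, read against 22.8% of the 14130 tested genes called lower and 29.9% called higher. The mitochondrial count of genes called higher was 0 with DESeq2 and limma-voom as well, and no mitochondrial member was higher at an unadjusted p of 0.05. The median log2 fold change was -1.34 for the cytosolic and -1.23 for the mitochondrial set, beside 0.18 for all tested genes. Against a minimum change of 2-fold, 7 cytosolic and 6 mitochondrial members were lower, beside 10.1% of all tested genes. MYC_Off and MYC_On values did not overlap for 29 lower members, 17 cytosolic and 12 mitochondrial, where 29.8% of tested genes were separated in that direction, and for Aars, where 33.2% were separated upward. Relative to the median of all genes, the sets stood at -1.52 and -1.41 with TMM and at -1.51 and -1.43 with library size only, where 19 cytosolic and 15 mitochondrial members were lower and 37.5% of all tested genes were.

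**Figure D1:**
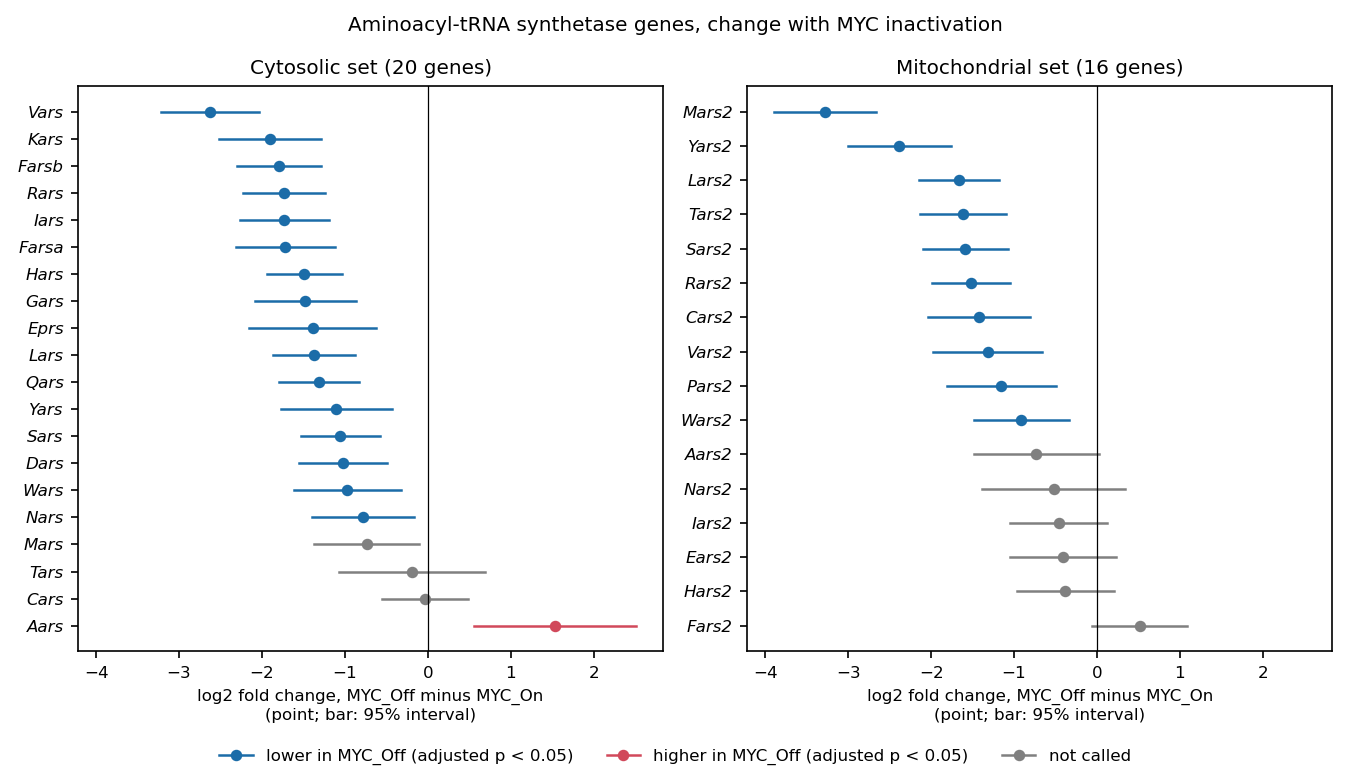
Log2 fold change (MYC_Off minus MYC_On, x axis) of each of the 36 synthetase genes, ordered within the cytosolic (left) and mitochondrial (right) set. Points are fitted values, bars 95% intervals and colours the call; most points lie between -1 and -2, with Vars (-2.63), Mars2 (-3.28) and Yars2 (-2.38) furthest left and Aars (1.54) alone called to the right.

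The balance between the compartments, summed over all members, differed between the groups by less than the spread between replicates. Cytosolic members took 0.122%, 0.113% and 0.117% of all reads in MYC_Off, against 0.437%, 0.513% and 0.398% in MYC_On. Mitochondrial members took 0.0247%, 0.0247% and 0.0203% in MYC_Off, against 0.0844%, 0.0942% and 0.0856% in MYC_On. Both shares were lower in every MYC_Off library than in any MYC_On library. The cytosolic sums and medians include Gars and Kars, whose rows serve both compartments, and Aars, which was called higher. Gars and Kars together stood at 175, 174 and 244 CPM in MYC_Off and at 624, 671 and 622 CPM in MYC_On. The balance without these genes was not computed. The ratio of cytosolic to mitochondrial reads, in which library scaling cancels, was 4.94, 4.57 and 5.78 in MYC_Off (5.10 ± 0.619) and 5.18, 5.45 and 4.64 in MYC_On (5.09 ± 0.408; SD, n = 3 each), so the groups overlapped. On the scale of medians, the cytosolic median log2 CPM lay above the mitochondrial one by 2.05 ± 0.216 in MYC_Off and by 2.21 ± 0.118 in MYC_On, a difference of -0.17, within the spread of the MYC_Off libraries. The difference was -0.27 without MYC_Off replicate 1, where the remaining MYC_Off values (1.82 and 2.06) lay below every MYC_On value (2.14 to 2.35). It was -0.06 without MYC_Off replicate 2 and -0.10 without MYC_On replicate 1.

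**Figure D2:**
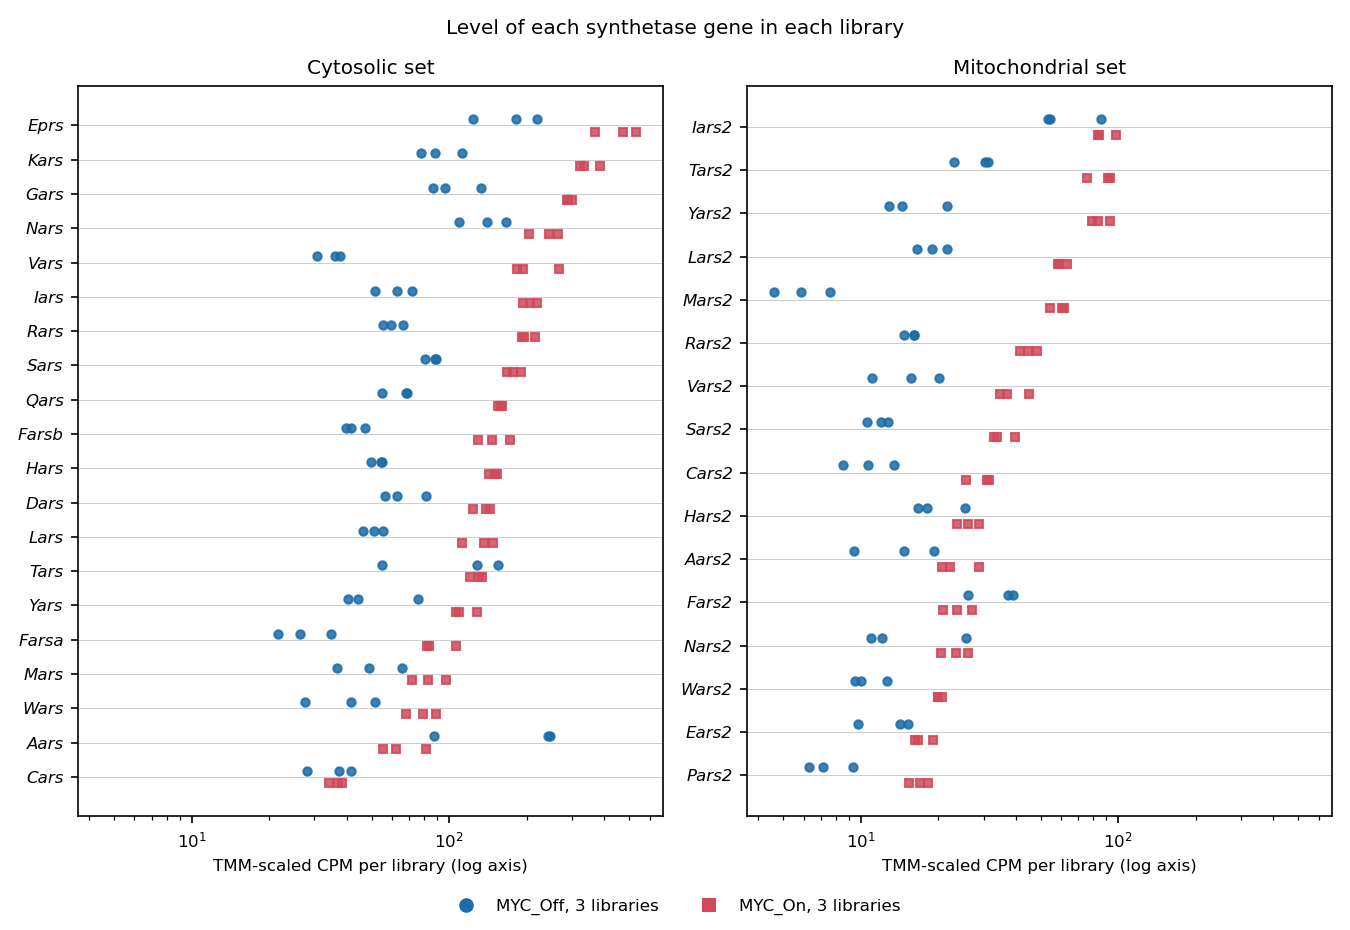
TMM-scaled CPM (log axis) of each synthetase gene in each library, with MYC_Off circles above MYC_On squares and genes ordered by their MYC_On mean. Circles lie left of squares for 29 genes, while Aars has its circles to the right and Cars, Tars, Fars2, Hars2, Iars2 and Nars2 overlap.

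Of the cytosolic enzymes, Vars, which charges valine, fell furthest. Vars (chromosome 17, 35000987 to 35016322, plus strand, GENCODE M21 on mm10) stood at 35.9, 30.6 and 37.6 CPM in MYC_Off and at 193, 266 and 184 CPM in MYC_On, which differ by -2.63 in log2 (SE 0.25, edgeR adjusted p = 0.00085). The highest MYC_Off value lay well below the lowest MYC_On value, and the fold between group means was 6.17 by the fit. Kars, which serves both compartments, stood at 88.2, 78.0 and 112 CPM in MYC_Off and at 334, 384 and 321 CPM in MYC_On (-1.90, SE 0.26, edgeR adjusted p = 0.0017). Gars, the other gene for both compartments, had 86.4, 96.4 and 132 CPM in MYC_Off against 290, 287 and 301 CPM in MYC_On (-1.48, SE 0.26). A pseudogene named Kars-ps1 exists, so reads of Kars are less certain. The isoforms for cytosol and mitochondria share one row, so Gars and Kars cannot be assigned to a compartment.

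Both subunits of the phenylalanine enzyme fell by similar amounts. Farsa stood at 26.4, 21.7 and 34.7 CPM in MYC_Off and 83.6, 106 and 82.4 CPM in MYC_On, or -1.72 in log2 (SE 0.25). Farsb stood at 41.6, 47.3 and 39.8 CPM in MYC_Off and 146, 172 and 129 CPM in MYC_On (-1.80, SE 0.22). Their groups did not overlap, and the SEs are larger than the difference between these changes. Eprs, the enzyme for glutamate and proline, had 123, 219 and 181 CPM in MYC_Off against 473, 533 and 367 CPM in MYC_On (-1.39, SE 0.33, adjusted p = 0.011, edgeR).

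Of the 8 listed enzymes of the multi-synthetase complex 7 fell (median -1.38), with MYC_Off below MYC_On and no overlap for all 8. Of all tested genes 22.8% were called lower and 29.8% were separated in that direction. Rars (arginine) had 66.4, 59.5 and 55.2 CPM in MYC_Off and 192, 215 and 196 CPM in MYC_On, with a log2 fold change of -1.73 (SE 0.21). Iars (-1.73, SE 0.23), Lars (leucine; -1.38, SE 0.21), Qars (glutamine; -1.31, SE 0.20) and Dars (aspartate; -1.02, SE 0.23) fell as well, besides Kars and Eprs. Mars (methionine) was the member without a call: it stood at 36.5, 65.7 and 49.0 CPM in MYC_Off and at 72.0, 97.5 and 82.7 CPM in MYC_On (-0.74, 95% interval -1.37 to -0.11, adjusted p = 0.052, edgeR). Exons of Mars overlap those of Ddit3 on the other strand, and the strand setting of the counting is not known. Without MYC_Off replicates 1 and 2 in turn, Mars passed at -0.70 (adjusted p = 0.043) and -1.06 (adjusted p = 0.015), and without MYC_Off replicate 3 it stood at the threshold (-0.83, adjusted p = 0.050). It did not pass without MYC_On replicate 1 (-0.89, adjusted p = 0.075), 2 (-0.67, adjusted p = 0.13) or 3 (-0.80, adjusted p = 0.099). Mars passed in 10 of 15 settings, DESeq2, limma-voom and the replicate block among them.

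The scaffold genes of that complex had a median of -2.48. Aimp2 stood at 18.6, 18.3 and 16.1 CPM in MYC_Off against 80.1, 87.1 and 127 CPM in MYC_On (-2.48, SE 0.26). Eef1e1 stood at 20.4, 17.1 and 10.6 CPM in MYC_Off against 110, 89.4 and 137 CPM in MYC_On (-2.80, SE 0.32). Aimp1, the remaining scaffold gene, had 31.9 ± 5.81 CPM in MYC_Off and 87.5 ± 11.1 CPM in MYC_On (-1.45, SE 0.23). All 3 scaffold genes were called lower, beside 22.8% of all tested genes. The difference between scaffold and enzymes was not tested.

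Among the free cytosolic enzymes that fell, the changes were smaller than for Vars. Hars (histidine) had 53.0 ± 2.80 CPM in MYC_Off and 149 ± 5.93 CPM in MYC_On (-1.49, SE 0.19). Sars (serine) had 85.8 ± 4.52 CPM in MYC_Off and 178 ± 11.3 CPM in MYC_On (-1.05, SE 0.20). Yars (-1.11, SE 0.29), Wars (tryptophan; -0.97, SE 0.27) and Nars (asparagine; -0.78, SE 0.26) had larger errors for their size. Yars lost its call without MYC_On replicate 2 (-1.07, adjusted p = 0.055, edgeR). Wars lost it without MYC_On replicate 2 (-0.93, adjusted p = 0.065) or 3 (-1.02, adjusted p = 0.056). Nars lost it without MYC_On replicate 1 (-0.82, adjusted p = 0.11), 2 (-0.75, adjusted p = 0.10) or 3 (-0.93, adjusted p = 0.063), and with the replicate number as a block (-0.80, adjusted p = 0.086), as did Wars with the block (-1.01, adjusted p = 0.056).

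Wars is known as a gene induced by interferon gamma. It stood at 51.4, 27.6 and 41.5 CPM in MYC_Off and at 68.1, 88.9 and 79.3 CPM in MYC_On, so every MYC_Off library was lower. Of 16 interferon-stimulated genes 15 were higher in MYC_Off, with a median of 2.74, beside 29.9% of all tested genes called higher. The RNA sensor Ifih1 stood at 52.6 ± 10.3 CPM in MYC_Off and 4.87 ± 0.951 CPM in MYC_On. The immunoproteasome subunit Psmb8 stood at 43.7 ± 15.4 CPM in MYC_Off and 2.66 ± 0.778 CPM in MYC_On. Within MYC_Off, replicate 1 had the highest Wars level and the highest summed level of these 16 genes (816 CPM, against 500 and 559 CPM in replicates 2 and 3). That library was also highest in Myc and in summed T cell and macrophage markers among the MYC_Off libraries. The part of any of these in the Wars level was not tested.

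Aars, alone among the members, was called higher in MYC_Off. Aars (chromosome 8, 111033144 to 111057664, plus strand) stood at 87.6, 242 and 246 CPM in MYC_Off and at 62.0, 81.0 and 55.6 CPM in MYC_On, which differ by 1.54 in log2 (SE 0.42, edgeR adjusted p = 0.019). The groups did not overlap, but MYC_Off replicate 1, in which Myc was highest among the MYC_Off libraries, lay close to the highest MYC_On value. That library also had the highest summed T cell markers (260 CPM, against 38.9 and 49.7 CPM in MYC_Off replicates 2 and 3) and macrophage markers (7848 CPM, against 3065 and 1995 CPM). Its summed hepatocyte markers were the lowest (103757 CPM, against 173351 and 267744 CPM), and the part of these differences in the Aars level was not tested. The call was lost without MYC_On replicate 1 (1.44, adjusted p = 0.078), 2 (1.66, adjusted p = 0.055) or 3 (1.37, adjusted p = 0.083) and with library size only (0.69, adjusted p = 0.11), while the sign stayed positive in all 15 settings tried. Aars stood 1.36 above the median of all genes with TMM and 1.25 above it with library size only. Exons of Aars overlap Exosc6 on the same strand, and Exosc6 was listed at 0 reads in all 6 libraries.

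The cytosolic genes Cars and Tars stayed without a call. Cars (cysteine) stood at 28.02, 37.5 and 41.5 CPM in MYC_Off and at 34.3, 38.4 and 36.9 CPM in MYC_On, with overlapping groups and a 95% interval of the log2 fold change from -0.56 to 0.49. Tars stood at 54.7, 128 and 155 CPM in MYC_Off and at 130, 135 and 120 CPM in MYC_On, with an interval from -1.07 to 0.69. As for Aars, MYC_Off replicate 1 was the low library for both. Without MYC_Off replicate 1, Tars stood at -0.0041 (adjusted p = 0.99, edgeR). With library size only both were called lower, Cars at -0.80 (adjusted p = 0.023) and Tars at -1.02 (adjusted p = 0.022). The list of 13 ATF4 target enzymes, of which 9 fell and 1 rose (median -1.05), holds Aars, Cars and Tars at one end and Vars, the most lowered cytosolic gene, at the other. Of all tested genes 22.8% were called lower and 29.9% higher.

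Of the mitochondrial enzymes, Mars2, which charges methionine, fell furthest of all 36 members. Mars2 (chromosome 1, 55237177 to 55248470, plus strand) stood at 7.58, 5.89 and 4.61 CPM in MYC_Off and at 61.4, 60.3 and 54.2 CPM in MYC_On, which differ by -3.28 in log2 (SE 0.26, edgeR adjusted p = 0.0008). The fitted fold was 9.69. Relative to the mean, replicates were closer together in MYC_On (58.6 ± 3.84 CPM) than in MYC_Off (6.03 ± 1.49 CPM). Yars2 (tyrosine; chromosome 16, 16302965 to 16309640, plus strand) stood at 14.5, 21.7 and 12.8 CPM in MYC_Off and at 83.2, 79.4 and 93.0 CPM in MYC_On (-2.38, SE 0.27). Lars2 (leucine) stood at 16.6, 21.6 and 18.97 CPM in MYC_Off and at 59.0, 63.5 and 58.4 CPM in MYC_On (-1.66, SE 0.21). Tars2 (threonine) stood at 23.1, 31.3 and 30.4 CPM in MYC_Off and at 75.4, 91.1 and 92.5 CPM in MYC_On (-1.61, SE 0.22). None of these 4 genes had overlapping groups.

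The other mitochondrial genes that fell had log2 fold changes between -1.59 and -0.91. Sars2 (serine) had 11.8 ± 1.12 CPM in MYC_Off and 35.4 ± 3.67 CPM in MYC_On (-1.59), and Rars2 (arginine) had 15.6 ± 0.795 CPM in MYC_Off and 44.8 ± 3.32 CPM in MYC_On (-1.52). Cars2 (cysteine) changed by -1.42, Vars2 (valine) by -1.32, Pars2 (proline) by -1.15 and Wars2 (tryptophan) by -0.91. Exons of Cars2 overlap Naxd over 422 bases, and those of Vars2 overlap Gm20483 over 465 bases, on the other strand. Wars2 stood at 10.1, 12.6 and 9.52 CPM in MYC_Off and at 19.95, 19.97 and 20.6 CPM in MYC_On. It lost its call without MYC_On replicate 1 (-0.97, adjusted p = 0.060, edgeR) or 3 (-0.95, adjusted p = 0.056) and with the replicate block (-0.92, adjusted p = 0.055), although its groups stayed apart.

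The mitochondrial set held 6 genes without a call. Fars2 (phenylalanine; chromosome 13, 36117412 to 36726280, plus strand) was the one with a positive estimate: 26.0, 38.9 and 37.3 CPM in MYC_Off and 20.8, 23.7 and 27.0 CPM in MYC_On (0.51, 95% interval -0.06 to 1.08), which turned negative with library size only (-0.26). Its MYC_Off replicate 1 lay within the MYC_On range. Exons of Fars2 overlap Nrn1 over 501 bases and Lyrm4 over 115 bases on the other strand, and the strand setting is not known. Iars2 (isoleucine) stood at 53.2, 85.5 and 54.5 CPM in MYC_Off and at 98.1, 83.6 and 84.3 CPM in MYC_On (-0.46, interval -1.04 to 0.12). Nars2 (asparagine) stood at 10.99, 25.7 and 12.1 CPM in MYC_Off and at 23.4, 20.5 and 26.1 CPM in MYC_On (-0.52, interval -1.39 to 0.34). In both, MYC_Off replicate 2 was the high library, and without it Iars2 passed at -0.79 (adjusted p = 0.028, edgeR) and Nars2 at -1.10 (adjusted p = 0.019). Exons of Iars2 overlap Rab3gap2 on the other strand over 2034 bases.

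Aars2, Ears2 and Hars2 complete the uncalled group. Aars2 (alanine) stood at 9.40, 19.2 and 14.7 CPM in MYC_Off and at 20.7, 28.8 and 22.2 CPM in MYC_On (-0.73, interval -1.48 to 0.02). Without MYC_Off replicate 2 Aars2 passed at -1.08 (adjusted p = 0.029, edgeR). Ears2 stood at 9.73, 14.2 and 15.3 CPM in MYC_Off and at 16.7, 16.2 and 19.1 CPM in MYC_On (-0.41, interval -1.05 to 0.23). The groups of Aars2 and Ears2 did not overlap. Hars2 (histidine) stood at 16.8, 25.5 and 18.1 CPM in MYC_Off and at 23.6, 28.8 and 26.0 CPM in MYC_On (-0.38, interval -0.96 to 0.20). With library size only, Aars2, Ears2, Hars2, Iars2 and Nars2 were all called lower. Hars and Hars2 are neighbours that start 197 bases apart on opposite strands and share 195 bases of exon, and their reads there can be told apart only if the counting used strand.

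By structural class, 8 of 10 cytosolic class I and 8 of 10 cytosolic class II genes fell, beside 22.8% of all tested genes. In the mitochondrial set 7 of 9 class I genes fell (median -1.42) and 3 of 7 class II genes did (median -0.73). The difference between classes was not tested. Levels per kilobase of exon allow only a rough comparison of genes. The length counts all annotated exons of a gene, which can exceed the transcript present in these tumours. Eprs, at 457 CPM in MYC_On, ranked 12 there with 18102 bases of exon. In MYC_Off the cytosolic genes ran from 5.42 (Cars) to 33.7 CPM per kilobase (Gars) and the mitochondrial ones from 0.534 (Mars2) to 7.25 (Iars2). In MYC_On the cytosolic genes ran from 5.55 (Cars) to 93.8 (Gars) and the mitochondrial ones from 3.35 (Nars2) to 27.1 (Yars2). Aars ranked 5 of 36 on this scale in MYC_Off and 24 in MYC_On, and Mars2 ranked 36 in MYC_Off and 30 in MYC_On. Neighbouring ranks were not tested against each other.

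Single pairs for one amino acid were separated between the groups in both directions. For 17 pairings of a cytosolic with a mitochondrial gene, the log2 ratio of their reads was taken in each library, which removes the scaling. It was higher in MYC_Off without overlap for 7 pairs, lower without overlap for 6 and overlapping for 4. Fars2 was paired with both Farsa and Farsb, and Eprs with both Ears2 and Pars2, so the pairs are not all independent. Both Fars2 pairs are among the 6. Of single tested genes 29.8% were lower and 33.2% higher without overlap, so separation is common in these libraries, and the share for other gene pairs was not computed. With 3 libraries a group the exact two-sided permutation test cannot go below p = 0.10, which all 13 separated pairs reached, with an adjusted p of 0.13 over the 17 pairs. No pair therefore passed a threshold of 0.05.

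**Figure D3:**
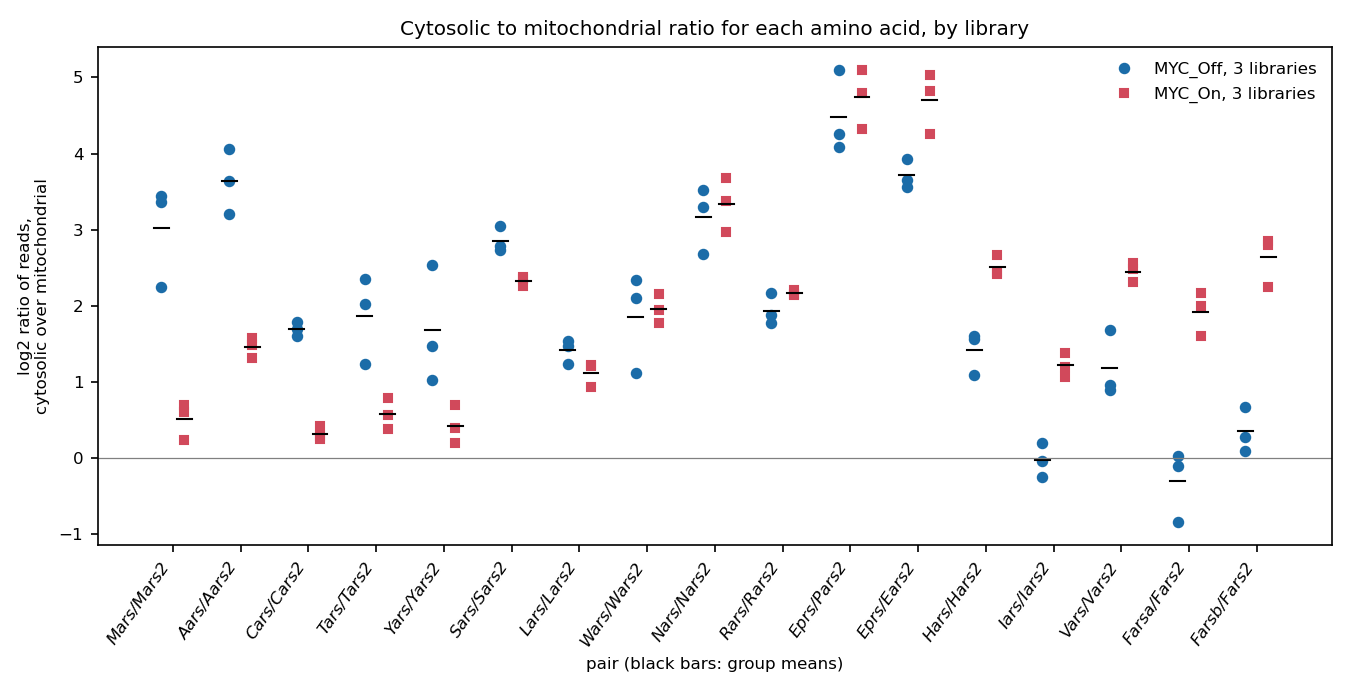
Log2 ratio of reads, cytosolic over mitochondrial gene (y axis), for 17 pairs (x axis), each with 3 MYC_Off circles left of 3 MYC_On squares and black bars at the group means. Pairs run from the largest shift towards the cytosolic gene (Mars/Mars2, 2.51) to the largest towards the mitochondrial gene (Farsb/Fars2, -2.29).

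Methionine, alanine and cysteine showed the widest shifts towards the cytosolic gene. The log2 ratio of Mars to Mars2 was 2.25, 3.45 and 3.37 in MYC_Off and 0.23, 0.69 and 0.61 in MYC_On, a difference of 2.51. For Aars to Aars2 it was 3.21, 3.64 and 4.05 in MYC_Off and 1.58, 1.49 and 1.32 in MYC_On (2.17). For Cars to Cars2 it was 1.70, 1.79 and 1.61 in MYC_Off and 0.42, 0.28 and 0.26 in MYC_On (1.38). The levels behind these shifts differed by pair. The methionine shift came with the deep fall of Mars2, the alanine shift with a higher Aars and a lower Aars2 level, and the cysteine shift with a lower Cars2 beside overlapping Cars levels. How the alanine shift divides between its genes depends on the scaling: with library size only, Aars was at 0.69 (edgeR adjusted p = 0.11) and Aars2 at -1.53 (adjusted p = 0.0049).

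Phenylalanine and valine showed the widest shifts towards the mitochondrial gene. The log2 ratio of Farsb to Fars2 was 0.67, 0.28 and 0.09 in MYC_Off and 2.80, 2.86 and 2.25 in MYC_On (-2.29). For Farsa to Fars2 it was 0.02, -0.84 and -0.10 in MYC_Off and 2.00, 2.16 and 1.60 in MYC_On (-2.23). For Vars to Vars2 it was 1.69, 0.96 and 0.89 in MYC_Off and 2.48, 2.56 and 2.31 in MYC_On (-1.27). Ratios for asparagine, arginine, tryptophan and proline (Nars, Rars, Wars and Eprs to Pars2) overlapped between the groups, with differences of -0.18, -0.23, -0.10 and -0.26.

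Genes that make and modify tRNA fell alongside the synthetases. Of all tested genes 22.8% were called lower and 29.9% higher. Of 23 tRNA maturation and export genes 19 fell and 0 rose (median -1.32). Rpp40, a subunit of the RNases P and MRP, had 4.95 ± 0.953 CPM in MYC_Off and 29.6 ± 1.504 CPM in MYC_On (-2.58, SE 0.26), and Elac2, which trims the tRNA 3′ end, had 30.4 ± 2.14 CPM in MYC_Off and 137 ± 31.1 CPM in MYC_On (-2.18, SE 0.24). Of 29 tested tRNA modification genes 25 fell and 0 rose (median -1.24). Qtrt1, part of the enzyme that inserts queuine, stood at 6.35 ± 1.32 CPM in MYC_Off and 48.5 ± 6.15 CPM in MYC_On (-2.93, SE 0.26). Pus1, a pseudouridine synthase, stood at 12.3 ± 2.70 CPM in MYC_Off and 71.5 ± 7.35 CPM in MYC_On (-2.54, SE 0.25). Pus3 had 0 reads in all 6 libraries and was not tested.

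Factors that act after charging were counted as well, read against 22.8% of all tested genes called lower. Of 6 cytosolic elongation genes 4 fell, among them Eef1g (45.1 ± 11.6 CPM in MYC_Off and 152 ± 5.82 CPM in MYC_On, -1.75) and Eef1d (116 ± 20.5 CPM in MYC_Off and 351 ± 4.17 CPM in MYC_On, -1.60). Of 9 mitochondrial translation factors 3 fell (median -0.31), close to the 22.8% of all tested genes called lower, and 7 did with library size only, where 37.5% of all tested genes were lower. The 3 were the elongation factors Tsfm (13.8 ± 1.14 CPM in MYC_Off and 38.0 ± 1.70 CPM in MYC_On, -1.46) and Tufm (11.1 ± 1.58 CPM in MYC_Off and 26.9 ± 3.17 CPM in MYC_On, -1.28), and Gfm2 (-0.83), which acts in ribosome recycling. The count was 2 without any 1 of the MYC_On replicates and with the replicate block. In those settings 5123 to 5763 of all tested genes were called in either direction, in place of 7443. The genes that complete charging in mitochondria by other routes gave 1 call among 4, a share near that of all tested genes: Gatc of the glutamine amidotransferase (-0.93, SE 0.21). Mtfmt, which formylates the initiator tRNA, stood at -0.68 (adjusted p = 0.073, edgeR). Among 5 tested genes for proofreading and selenocysteine 1 fell and 1 rose, no more than the shares of all tested genes (22.8% lower, 29.9% higher). Dtd1, which removes D-amino acids from tRNA, fell (-1.93, SE 0.26). Prorsd1, related to the editing domain of prolyl-tRNA synthetases, rose (1.61, SE 0.33), a call lost with library size only.

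**Figure D4:**
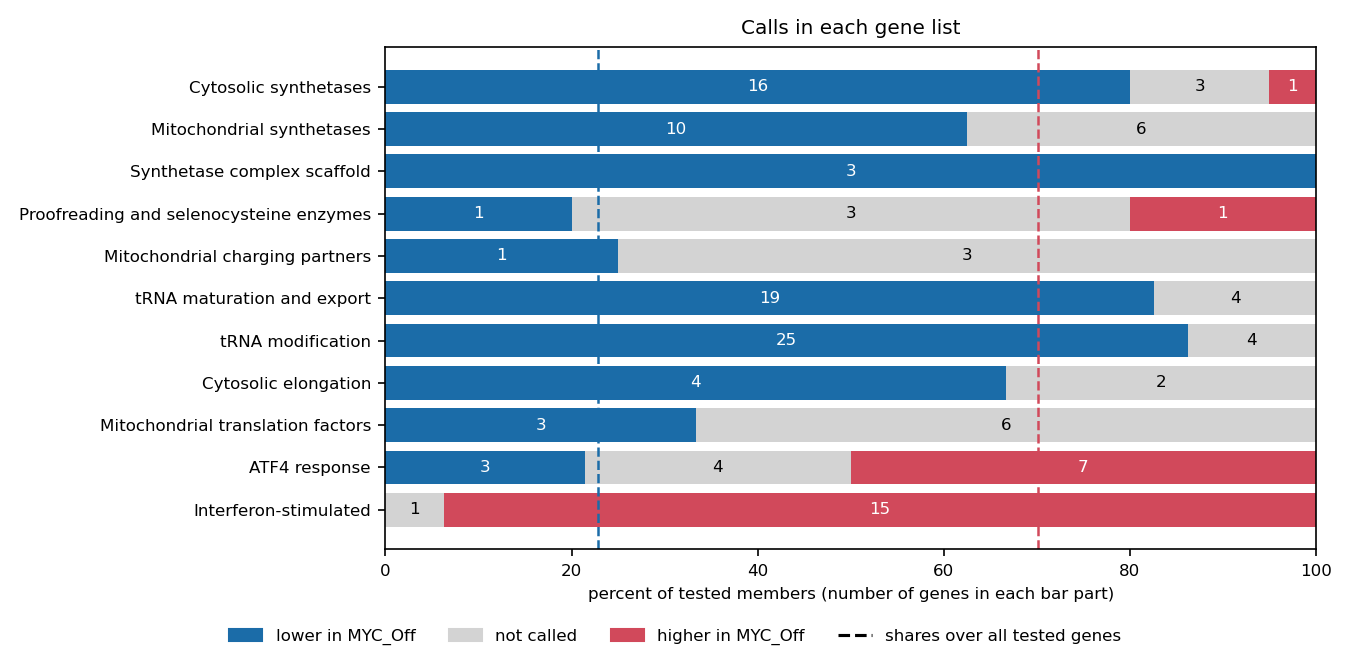
Share of tested members (x axis, percent) called lower (blue), not called (grey) or higher (red) in MYC_Off for each gene list, with the number of genes in each bar part and dashed lines at the shares over all tested genes, 22.8% lower and 29.9% higher. Both synthetase sets, the complex scaffold, tRNA maturation, tRNA modification and cytosolic elongation lie past the blue line. Mitochondrial translation factors and mitochondrial charging partners pass it by less. The ATF4 response list holds 3 lower and 7 higher genes.

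Of 14 tested genes of the ATF4 response 7 rose and 3 fell (median 0.61), beside 29.9% of all tested genes called higher and 22.8% called lower. The lower count is near the share of all genes. Atf4 itself stood at 133, 128 and 219 CPM in MYC_Off and at 108, 139 and 136 CPM in MYC_On (0.33, SE 0.29, adjusted p = 0.37, edgeR). Nupr1, a stress-induced transcription cofactor, rose, with 17.02 ± 8.25 CPM in MYC_Off and 0.910 ± 0.265 CPM in MYC_On (4.22, SE 0.55). The 3 that fell are enzymes of amino acid synthesis. Phgdh, which opens serine synthesis, stood at 9.87 ± 6.05 CPM in MYC_Off and 158 ± 15.1 CPM in MYC_On (-3.99, SE 0.45). Psat1, the next serine enzyme, changed by -2.69 (SE 0.56) and Asns, the asparagine synthetase, by -1.81 (SE 0.29). Of the 14, 4 were called higher without MYC_On replicate 1, without MYC_On replicate 3, with the replicate block or with library size only. Over all tested genes, calls in either direction fell from 7443 to 5178 and 5395 without those replicates and to 5763 with the block. With library size only 7827 genes were called, of which 32.3% were higher in place of 56.7%.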

How the data were processed

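For each gene symbol, the deposited table gave raw read counts of 6 libraries. The submitters' processing notes name mm10 as build and, as tools, featureCounts, STAR, Trimmomatic, DESeq2 and Picard. Their versions, the annotation and the strand setting were not given in the sources used here. RNA came from frozen tumours through a column kit, per the labels' protocols. The 26 rows whose symbols had become dates kept a row number. MYC_Off and MYC_On were compared in edgeR 4.0.16 (R 4.3.3) by a robust quasi-likelihood fit with TMM scaling and Benjamini-Hochberg adjustment at 0.05 over the 14130 genes kept by filterByExpr (count 10, total 15). An SE is the fold change over the root of its F value, and log2 ratios used a prior count of 2. The procedure was tested on counts drawn with known changes in a small share of genes. Those counts held no shift in composition like that between the groups, so the scaling was not tested by them. Replicate libraries differed by more than counting noise, with chi-square at least 32.1 times its degrees of freedom. Gene coordinates and exon lengths came from GENCODE M21, and promoter windows from RefSeq.

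The members and gene lists were chosen with earlier results of these data known. All members are named. Per-library values were given for the 4 lowest and 4 highest changes of each set, Gars, Kars, Eprs, Farsa, Farsb and uncalled members. Other lists name the 2 smallest adjusted p and calls against the majority. Further values (those of Gfm2, Aimp1, Psmb8, Psat1, Asns, Wars, Wars2, Hars, Sars, Sars2, Rars2, Nars, Yars and Cars2) were chosen after they were seen. Protein sequences were not used here.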

Additional observations from a re-analysis of the deposited data

How the results depend on the processing

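Of the 27 called members, 22 kept their call in each of 15 settings (3 other scalings, 2 other filters, DESeq2 1.42.0, limma-voom 3.58.1, a non-robust fit, a replicate block and leaving out each of 6 libraries), and Aars, Nars, Wars, Yars and Wars2 lost it in some. The sign held in all 15 for 35 of 36 members, the exception being Fars2 with library size only (-0.26). Of the uncalled members, 8 passed in at least 1 setting. The median of the cytosolic and of the mitochondrial set was -2.08 and -1.996 with library size only, and -1.73 and -1.64 with library size without the 20 most abundant genes. Leaving out 1 library moved the cytosolic median between -1.53 and -1.33 and the mitochondrial median between -1.52 and -1.25. All genes called numbered 7443, and 4257 at an adjusted p of 0.01. Against a minimum change of 2-fold, 7 cytosolic and 6 mitochondrial members were lower, beside 1428 (10.1%) of all tested genes. In either direction 4049 genes were called at that minimum. Scaling cancels in the pair ratios, and no pair moved by more than 1 SD of its replicates with another prior count. Same-numbered libraries did not deviate together (correlations of -0.26, -0.17 and 0.04), so the numbers were not taken as pairs. With the replicate block 15 cytosolic and 9 mitochondrial members were lower. Over all tested genes 5763 were called with the block, lower and higher together, in place of 7443. Exact tests on 3 against 3 libraries cannot pass 0.05, which limits the pair ratios.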
